A study of Mus musculus with 11 samples.

Results

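The genes described here are 9 factors of nonsense-mediated mRNA decay, Upf1, Upf2, Upf3a, Upf3b, Smg1, Smg5, Smg6, Magoh and Magohb. They were chosen by name, with no rule on their values, from a table of 55414 genes. In the matching transcript table, 45 of 142435 transcripts belonged to them. Earlier results of these data were known when the factors, the gene lists used below and the tests were chosen. Nonsense-mediated decay destroys mRNAs on which a ribosome stops too early, usually with an exon junction complex still bound downstream of the stop. The RNA helicase UPF1 is recruited to such a ribosome, UPF2 and UPF3 link it to the exon junction complex, the kinase SMG1 phosphorylates it, and SMG5 and SMG6 act on the phosphorylated form. The pathway also acts on many normal mRNAs, among them transcripts with introns after the stop codon or upstream open reading frames.

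RNA came from CD8+ T cells of OT-I mice, whose T cells carry a transgenic receptor for a peptide of ovalbumin. Torin cells (n = 3 libraries) received Torin, an inhibitor of the kinase mTOR, together with N4, the peptide that stimulates these cells. Stimulated cells (n = 4) received N4 with DMSO, the solvent. Naive cells (n = 4) were left untreated, and each group was taken at 12 h. Mouse strain, age and sex, and whether libraries came from separate animals, are not given in the sources used here, so the p-values below rest on how far these libraries spread, which may be technical.

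Estimated counts per library totalled 241865667 to 405884097, more than usual read numbers, and the labels do not state why, so no counting interval was computed. Libraries of the same number shared traits across groups. Summed B cell markers, in CPM (counts scaled to 1e6 per library), ran from 13240 to 47390 in number 4 libraries, with Igkc, an immunoglobulin light chain gene, holding most of it. Elsewhere they summed to 38.5 to 55.3 CPM in Torin, 43.1 to 117 CPM in stimulated and 222 to 366 CPM in naive libraries. The summed granulocyte markers stood at 2067 CPM in stimulated 2 and 8514 CPM in naive 2. Elsewhere they were 16.2 to 50.4 CPM in Torin, 16.8 to 41.1 CPM in stimulated and 123 to 162 CPM in naive libraries. Outside number 2, too, naive libraries were thus the highest. Monocyte and macrophage markers summed to 51.3 to 77.5 CPM in Torin, 137 to 338 CPM in stimulated and 1093 to 2966 CPM in naive libraries. Except in naive 2, a single gene, Ly6c2, held most of this sum. It stood at 41.2 to 66.5 CPM in Torin, 130 to 318 CPM in stimulated and 967 to 1480 CPM in naive libraries. Which cells this Ly6c2 RNA came from cannot be told here. Lyz2, another gene of the sum, was 3.81 to 7.93 CPM in Torin, 4.26 to 34.2 CPM in stimulated and 96.7 to 1773 CPM in naive libraries. Only in naive 2 was it higher than Ly6c2. All 6 CD8 T cell markers were present in every library, and their sum was 3927 to 4138 CPM in Torin, 2118 to 2912 CPM in stimulated and 4979 to 6206 CPM in naive libraries. In bulk RNA, fewer cells of a type and less RNA per cell cannot be told apart, and the part of these other cells in the results on the decay factors was not tested.

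The 2 exon junction genes stood far above the UPF and SMG genes and changed most. Magoh and Magohb were higher in stimulated than in naive cells, and Magoh was lower with Torin than without it. Upf2, Smg1, Smg6 and Upf3a were lower in stimulated than in naive cells by smaller amounts, and Upf1, Upf3b and Smg5 did not pass the test. In edgeR's quasi-likelihood test over 22238 genes, 6 of the 9 factors passed an adjusted p of 0.05 between stimulated and naive cells, 2 higher and 4 lower, where 39.5% of all genes passed (19.2% higher and 20.2% lower). The same 6 had no overlap between the groups, against 41.5% of all genes. Between Torin and stimulated cells 1 of 9 passed, lower, against 4.62% of all genes (2.32% higher and 2.3% lower), and 3 had no overlap, against 19.7%. Between Torin and naive cells 2 of 9 passed, both higher, against 32.2% of all genes (16.4% higher and 15.8% lower), and 6 had no overlap, against 43.5%. These comparisons share libraries, so their values stand side by side and are not independent. Without the libraries of number 4 the count between stimulated and naive cells was 3, and without those of number 2 it was 4.

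**Figure D1:**
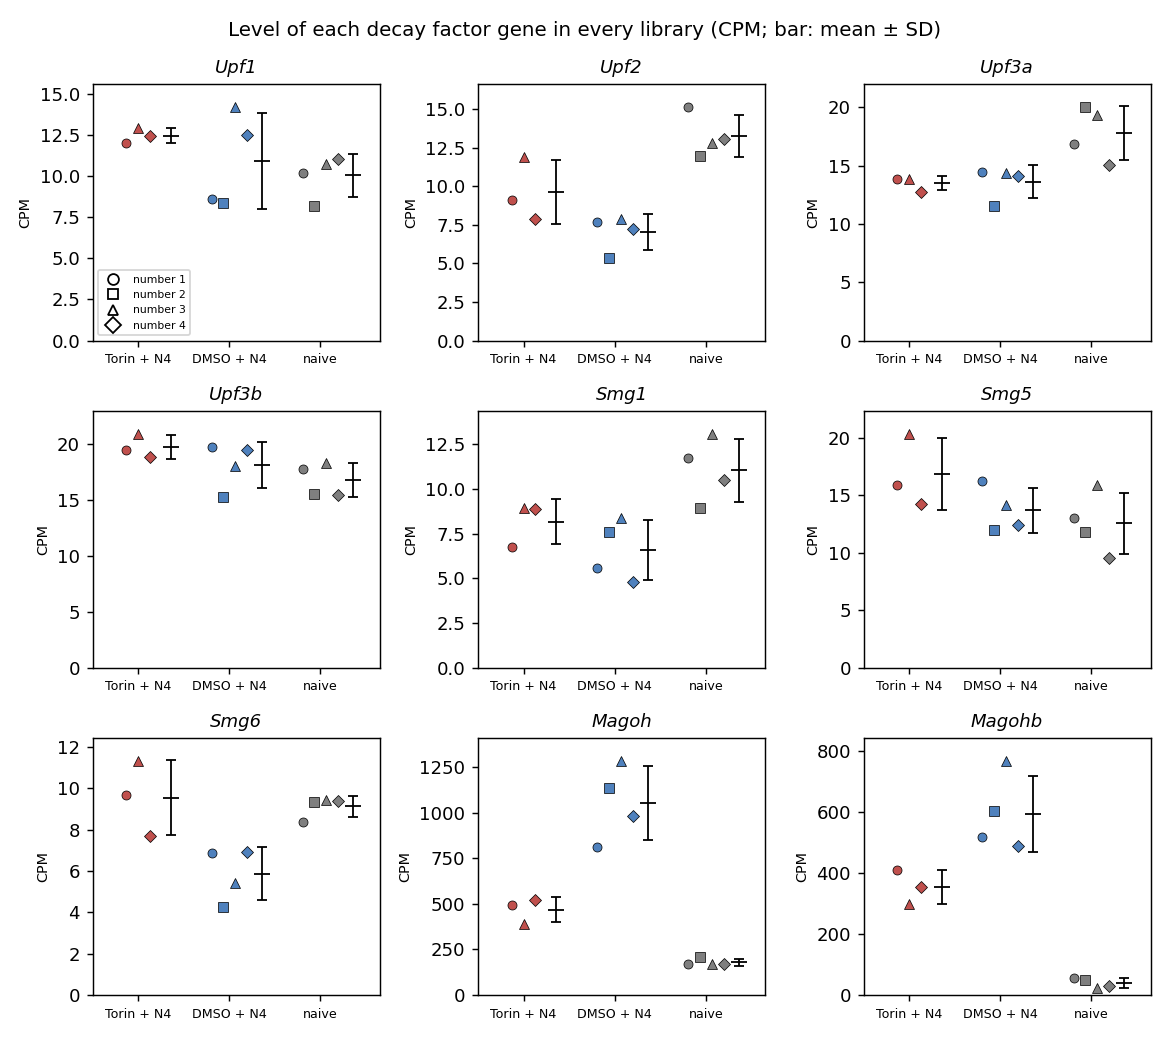
Level of each factor gene (CPM, linear axes from 0) in every library, by group and replicate number, with the mean and SD beside the points. Magoh and Magohb separate the 3 groups completely, while Upf1, Upf3b and Smg5 overlap between stimulated and naive cells.

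Per unit of transcript length, in TPM (length-scaled counts per 1e6, computed from the transcript counts), Magoh led in each group. It averaged 555 ± 88.3 TPM in Torin, 1094 ± 101 TPM in stimulated and 290.0 ± 54.7 TPM in naive cells (SD; n = 3, 4 and 4). Magohb came next, at 383 ± 57.2, 559 ± 60.7 and 60.3 ± 33.7 TPM in Torin, stimulated and naive cells, and its range overlapped no neighbour's in any group. The other factors lay between 0.811 and 6.98 TPM in Torin, 0.659 and 5.69 TPM in stimulated, and 1.28 and 10.7 TPM in naive cells. Upf3b and Upf3a were the highest of these in all 3 groups and Smg1 the lowest, with Smg5, Upf1, Upf2 and Smg6 between. In stimulated cells Upf3b overlapped Upf3a, Smg5 overlapped Upf1, Upf2 overlapped Smg6 and Smg6 overlapped Smg1. In Torin cells the only neighbours that overlapped were Upf2 and Smg6. In naive cells Upf3a overlapped Upf3b, and each neighbouring pair from Smg5 down to Smg1 overlapped. TPM was scaled by library totals alone, unlike the CPM values, so it orders genes within a group. Changes between groups rest on the CPM fits below. Upf1, Upf3b and Smg5 averaged less TPM in stimulated than in naive cells, while their fitted CPM changes were slightly positive and did not pass.

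Upf1 encodes the ATP-dependent RNA helicase at the centre of the pathway. Its level was 12.0, 12.9 and 12.4 CPM in Torin 1, 3 and 4, 8.60, 8.36, 14.2 and 12.5 CPM in stimulated 1 to 4, and 10.2, 8.195, 10.7 and 11.1 CPM in naive 1 to 4. Stimulated and naive libraries overlapped, with naive 2 the lowest of all, and no comparison of Upf1 passed. Its log2 change was 0.19 (SE 0.21, adjusted p = 0.697, edgeR) for Torin against stimulated and 0.12 (SE 0.20, adjusted p = 0.664) for stimulated against naive cells, where the 95% interval was -0.31 to 0.55. Scaled by library totals alone, the stimulated against naive value was -0.39 and did not pass.

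The gene has 2 annotated coding transcripts, which encode the long-loop and short-loop forms of the helicase. They differ in the coding sequence by 33 bases, or 11 codons, at coding positions 1042 to 1074 of Upf1-201, counted from the start codon. The stretch is shown because the split of Upf1 counts between both forms varied most among the 12 transcripts tested for usage, with the extra bases in capitals (GENCODE transcripts on GRCm38, chromosome 8, 24 bases on each side).
Upf1-201: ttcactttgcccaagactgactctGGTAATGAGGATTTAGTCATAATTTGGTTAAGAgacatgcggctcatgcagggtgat
Upf1-202: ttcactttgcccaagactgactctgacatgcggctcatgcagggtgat
The share of Upf1 counts assigned to Upf1-201, the longer form, was 6.60%, 99.0% and 33.9% in Torin 1, 3 and 4. It was 32.7%, 7.10%, 1.42% and 7.77% in stimulated 1 to 4, and 54.8%, 100%, 29.2% and 11.9% in naive 1 to 4. Stimulated libraries were mostly low, but naive 3 and naive 4 lay inside their range and the Torin libraries reached from near the lowest value to near the highest. The usage of either transcript passed in no comparison.

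Upf2 encodes the adaptor that bridges UPF1 and UPF3. It stood at 9.12, 11.9 and 7.91 CPM in Torin, 7.71, 5.37, 7.91 and 7.25 CPM in stimulated, and 15.2, 12.0, 12.9 and 13.1 CPM in naive libraries. Every stimulated library was below every naive one, and the Torin libraries reached from the stimulated range to just under the naive one. Upf2 was lower in stimulated than in naive cells by a log2 change of -0.91 (SE 0.18, adjusted p = 0.00228, edgeR), and this call held under each alternative run. The value for Torin against stimulated cells was 0.45 (SE 0.20, adjusted p = 0.228). For Torin against naive cells it was -0.46 (SE 0.20, adjusted p = 0.101), and with the replicate number as a block it was -0.56 and passed (adjusted p = 0.0466).

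Upf3a and Upf3b are paralogs that bind the exon junction complex. UPF3B, encoded on the X chromosome, is the stronger activator of decay in mammals. Upf3a stood at 13.8, 13.8 and 12.8 CPM in Torin, 14.4, 11.5, 14.4 and 14.1 CPM in stimulated, and 16.8, 20.02, 19.3 and 15.03 CPM in naive libraries. All naive libraries were above all others, with naive 4 nearest to the stimulated range. The log2 change for stimulated against naive cells was -0.39 (SE 0.14, adjusted p = 0.0470, edgeR), just inside the threshold. It did not pass with the replicate block (-0.38, adjusted p = 0.0684), or without the libraries of number 4 (-0.38, adjusted p = 0.132) or of number 2 (-0.26, adjusted p = 0.253). The call was also lost without the filter on low counts, with both groups fitted alone, and with any 1 library left out other than naive 4. For Torin against naive cells the value was -0.40 (adjusted p = 0.0658).

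Upf3b was 19.5, 20.9 and 18.8 CPM in Torin, 19.7, 15.2, 18.0 and 19.4 CPM in stimulated, and 17.8, 15.5, 18.3 and 15.4 CPM in naive libraries. The Torin libraries lay above all naive libraries by a small margin, and stimulated and naive libraries overlapped. The log2 change was 0.12 (95% interval -0.19 to 0.44) for Torin against stimulated and 0.11 (95% interval -0.18 to 0.40) for stimulated against naive cells, and neither passed.

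Smg1 encodes the kinase that phosphorylates UPF1. It stood at 6.72, 8.91 and 8.85 CPM in Torin, 5.59, 7.60, 8.38 and 4.80 CPM in stimulated, and 11.7, 8.90, 13.1 and 10.5 CPM in naive libraries. Stimulated libraries were all below naive ones, although stimulated 3 came close to naive 2, and Torin libraries overlapped both groups. The log2 change was -0.74 (SE 0.21, adjusted p = 0.0173, edgeR) for stimulated against naive cells. It was -0.54 and did not pass without the libraries of number 4 (adjusted p = 0.142). For Torin against stimulated cells it was 0.31 (SE 0.23, adjusted p = 0.514).

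Smg6 encodes the endonuclease that cuts the target near the stop codon. Its level was 9.68, 11.3 and 7.67 CPM in Torin, 6.89, 4.25, 5.40 and 6.91 CPM in stimulated, and 8.36, 9.32, 9.41 and 9.40 CPM in naive libraries. The stimulated libraries were lower than all others, and the Torin libraries surrounded the naive range. For stimulated against naive cells the log2 change was -0.64 (SE 0.19, adjusted p = 0.0226, edgeR). This call was lost without stimulated 2 (-0.51, adjusted p = 0.0547), stimulated 3 (-0.51, adjusted p = 0.101), the libraries of number 2 (-0.50, adjusted p = 0.0952) or those of number 4 (-0.61, adjusted p = 0.0736). It was also lost with both groups fitted alone. With Torin the change against stimulated cells was 0.70 (SE 0.21, 95% interval 0.25 to 1.16), which did not pass in edgeR (adjusted p = 0.0836) and passed in DESeq2 (0.67, adjusted p = 0.0309).

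Smg5 encodes an adaptor that binds phosphorylated UPF1 and helps to recruit decay enzymes and phosphatase. It was 15.9, 20.3 and 14.3 CPM in Torin, 16.3, 12.0, 14.2 and 12.4 CPM in stimulated, and 13.03, 11.8, 15.9 and 9.52 CPM in naive libraries. The 3 groups overlapped, with the highest value in Torin 3 and the lowest in naive 4. The log2 change was 0.30 (SE 0.20, adjusted p = 0.475, edgeR) for Torin against stimulated and 0.13 (SE 0.19, adjusted p = 0.638) for stimulated against naive cells.

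**Figure D2:**
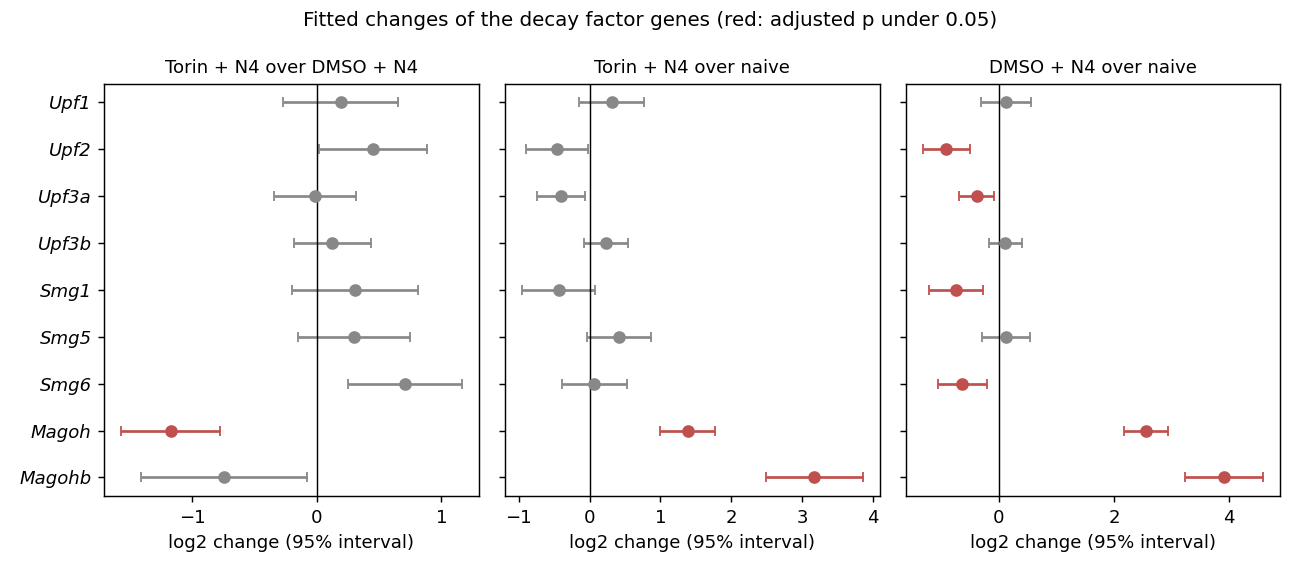
Fitted log2 change of each factor gene with its unadjusted 95% interval in the 3 comparisons, red where the adjusted p over all genes was under 0.05. Magoh alone is red for Torin over stimulated cells, Magoh and Magohb for Torin over naive cells, and 6 genes for stimulated over naive cells; an interval that excludes 0 can still miss the adjusted threshold, as for Smg6 with Torin.

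Magoh and Magohb are paralogs whose products pair with RBM8A in the core of the exon junction complex, where they lock the complex on spliced RNA. In mouse, the RNAs Magoh-201 (chromosome 4) and Magohb-201 (chromosome 6) hold coding sequences of 441 and 447 bases with the stop codon. Aligned, these coding sequences were 80.95% identical, with 84 mismatches, of which 9, 2 and 73 fell at the first, the second and the third codon position. The longest run they share without a mismatch was 17 bases, in the coding sequences and in the whole transcripts alike. A stretch of 120 coding bases around that run is printed to show how far reads of both genes can be told apart, with the 19 differing bases in capitals (coding positions 228 to 347 of Magoh-201 and 234 to 353 of Magohb-201).
Magoh-201: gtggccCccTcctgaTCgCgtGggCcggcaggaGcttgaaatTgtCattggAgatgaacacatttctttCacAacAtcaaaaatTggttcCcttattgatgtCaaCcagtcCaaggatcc
Magohb-201: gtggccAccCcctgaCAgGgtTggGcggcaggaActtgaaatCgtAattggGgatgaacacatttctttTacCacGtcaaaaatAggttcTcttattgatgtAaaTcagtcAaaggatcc

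Magoh stood at 492, 389 and 519 CPM in Torin 1, 3 and 4, 811, 1136, 1283 and 981 CPM in stimulated 1 to 4, and 170.1, 206, 171 and 169 CPM in naive 1 to 4. The 3 groups were fully separated, with Torin between stimulated and naive. Magoh was higher in stimulated than in naive cells by a log2 change of 2.56 (5.88-fold, SE 0.17, adjusted p = 6.72e-06, edgeR). It was lower with Torin than in stimulated cells by a log2 change of -1.17 (0.444-fold, SE 0.18, adjusted p = 0.00851), and higher with Torin than in naive cells by 1.38 (SE 0.17, adjusted p = 0.000200). The call with Torin was lost without Torin 3 (-1.06, adjusted p = 0.0566), the Torin library with the lowest Magoh level. It was also lost without the libraries of number 4 (-1.27, adjusted p = 0.0810), where Torin keeps 2 libraries.

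Magohb stood at 409, 299 and 355 CPM in Torin, 518, 604, 767 and 488 CPM in stimulated, and 56.5, 49.9, 23.2 and 28.5 CPM in naive libraries. Again the 3 groups did not overlap, and the naive libraries of numbers 3 and 4 were lower than those of numbers 1 and 2. Between stimulated and naive cells Magohb had the largest change of the 9 factors, a log2 change of 3.91 (15.0-fold, SE 0.31, adjusted p = 9.92e-06, edgeR). Between Torin and naive cells it was higher by 3.17 (SE 0.31, adjusted p = 6.17e-05). Its log2 change with Torin against stimulated cells was -0.75 (SE 0.30) and did not pass (adjusted p = 0.199), although all 3 Torin libraries lay below all 4 stimulated ones. Per unit of length, the ratio of Magohb to Magoh in TPM was 0.622 to 0.756 in Torin, 0.451 to 0.580 in stimulated and 0.123 to 0.301 in naive libraries. These ranges did not overlap either, and Torin had the highest ratio; the ratio was looked at after the data were seen and was not tested.

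The promoter windows of both genes, 250 bases before to 50 after the annotated start, are printed because both genes changed together and both windows hold the letters GACGTCA, in capitals below, which were looked for after the windows had been read (RefSeq, GRCm38.p6). They are at chr4:107879505-107879804 on the plus strand for Magoh and at chr6:131293195-131293494 on the minus strand for Magohb.
Magoh: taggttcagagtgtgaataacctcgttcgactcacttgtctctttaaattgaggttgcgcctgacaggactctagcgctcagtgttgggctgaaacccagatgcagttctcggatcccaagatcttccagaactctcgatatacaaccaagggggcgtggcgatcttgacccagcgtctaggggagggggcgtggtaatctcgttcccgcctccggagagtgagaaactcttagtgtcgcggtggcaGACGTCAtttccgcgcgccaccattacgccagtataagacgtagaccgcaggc
Magohb: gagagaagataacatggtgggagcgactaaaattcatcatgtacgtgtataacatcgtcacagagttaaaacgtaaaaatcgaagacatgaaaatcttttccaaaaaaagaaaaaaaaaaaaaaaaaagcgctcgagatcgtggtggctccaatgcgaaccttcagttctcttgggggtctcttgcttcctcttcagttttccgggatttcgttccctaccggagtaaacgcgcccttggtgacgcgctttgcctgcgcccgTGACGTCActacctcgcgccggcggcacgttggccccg
Searched on both strands, GACGTCA was found in these 2 of the 9 windows and in 3.21% of 32817 mouse promoter windows. In Magohb it reads on both strands with an overlap, so the capitals there show TGACGTCA. CACGTG, the core of the E-box bound by MYC, was in 0 of the 9 windows and in 7.15% of all. TGATGNAA, a form of the element bound by ATF4 with CHOP, was in 0 of 9 and in 3.97% of all.

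Across the 11 libraries, the log2 CPM of Magoh and Magohb had a Pearson r of 0.95. Upf2 ran opposite to Magoh (r = -0.92) and with Smg6 (r = 0.79), and Upf3b ran with Smg5 (r = 0.83). Upf1 had no r beyond 0.55 with any other factor. These are descriptions over libraries that share groups and source numbers. Among 8448 genes with a mean of at least 5 CPM, those most like Magohb were Gar1, a protein of H/ACA small nucleolar particles (r = 0.995), Slc25a35, of the mitochondrial carrier family (r = 0.994), and Nme1, a nucleoside diphosphate kinase (r = 0.993). Those most like Magoh were Mrpl35, a mitochondrial ribosomal protein gene (r = 0.998), Usmg5, which encodes a small subunit of the ATP synthase (r = 0.997), and Snrpe, a core protein of spliceosomal particles (r = 0.997).

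Other genes of the pathway were read from 4 lists, and their log2 changes are plotted beside those of the 9 factors. Over all genes the median log2 change was -0.22 for stimulated against naive cells and -0.71 when libraries were scaled by their totals alone. For Torin against stimulated cells these medians were -0.02 and 0.11.

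The exon junction complex list held 7 genes beside Magoh and Magohb. Between stimulated and naive cells 4 were higher and 2 lower (median 0.79), where 19.2% of all genes were higher and 20.2% lower, or 3 and 3 with library totals alone. Rbm8a, the partner of Magoh, averaged 656 ± 50.8 CPM in Torin, 1009.6 ± 179.6 CPM in stimulated and 272 ± 35.6 CPM in naive cells. It was higher in stimulated than in naive cells by a log2 change of 1.89 (adjusted p = 1.03e-05, edgeR), and reads of its close copy Rbm8a2 may be shared with it. Eif4a3, the helicase of the core, was higher by 1.37 (adjusted p = 0.000116) and Rnps1, a peripheral splicing factor, by 1.01 (adjusted p = 0.00136). Sap18, which also binds at the periphery, rose as well. Pym1, which takes the complex off the mRNA, was lower by -0.85 (adjusted p = 0.00437), and Casc3, the remaining core-associated protein, also fell. With Torin against stimulated cells 0 of 7 passed in edgeR, where 4.62% of all genes passed. In edgeR 2 had an unadjusted p under 0.05, and the median was 0.07. DESeq2, which called more of all genes than edgeR did, called 1 of the 7. Rbm8a came nearest, at -0.62 (adjusted p = 0.0573) with no overlap.

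In the list of translation termination, poly(A) tail and cap-binding genes, 6 of 7 were higher and 1 lower in stimulated than in naive cells (median 1.47), where 19.2% and 20.2% of all genes were, or 5 and 1 with library totals alone. Etf1, which encodes the release factor that reads stop codons, averaged 51.9 ± 12.0 CPM in Torin, 79.0 ± 6.21 CPM in stimulated and 19.4 ± 4.51 CPM in naive cells, a log2 change of 2.02 for stimulated against naive (adjusted p = 2.86e-05, edgeR). Pabpc4, a poly(A) binding protein gene, was higher by 2.21 (adjusted p = 9.47e-06) and the cap-binding gene Ncbp2 by 1.88 (adjusted p = 7.33e-06). Gspt1, the partner of the release factor, Ncbp1 and Pabpc1 also rose. The gene that fell, Gspt2, stood at 0.591 CPM or less in every library. With Torin against stimulated cells 1 of 7 passed, higher (median -0.16), where 4.62% of all genes passed. An unadjusted p under 0.05 was seen for 5, and 5 had no overlap, against 19.7% of all genes. Etf1 (-0.60, adjusted p = 0.146, edgeR), Ncbp2 (-0.50, adjusted p = 0.0795) and Ncbp1 (-0.42, adjusted p = 0.179) were lower without overlap and did not pass. Pabpc1 and Gspt2 were higher without overlap. Pabpc1, the main cytoplasmic poly(A) binding protein gene and an opponent of UPF1 at the stop codon, had 341, 352 and 316 CPM in Torin, 195.6, 173, 226 and 199 CPM in stimulated, and 118, 109.7, 145 and 115 CPM in naive libraries. The 3 groups were separate, and the change with Torin was 0.76 (SE 0.14, adjusted p = 0.0155). It did not pass without Torin 1, without Torin 3, or without the libraries of number 2 or 4.

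Among 10 other decay factors, 3 were higher and 1 lower in stimulated than in naive cells (median 0.37), or 2 and 2 with library totals alone. With 39.5% of all genes called, 4 of 10 is near the share over all genes. Ruvbl1 and Ruvbl2, paired ATPases that assemble large complexes and act with SMG1, were higher by 2.53 (adjusted p = 9.10e-05, edgeR) and 2.59 (adjusted p = 3.29e-05). Ruvbl1 averaged 99.95 ± 5.91 CPM in Torin, 128 ± 18.4 CPM in stimulated and 22.2 ± 11.5 CPM in naive cells. Pnrc2, an adaptor to the decapping enzyme, was lower by -1.30 (adjusted p = 0.000597). Ppp2r1a, the scaffold of the phosphatase that acts on UPF1, was higher by 0.56 (adjusted p = 0.0136). Smg8, Smg9, Dhx34, Nbas and Ppp2ca did not pass. With Torin against stimulated cells 0 of 10 passed in edgeR or DESeq2, where 4.62% of all genes passed in edgeR. An unadjusted p under 0.05 in edgeR was seen for 0, and the median was 0.03.

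The 11 mRNA degradation genes included 1 that was higher and 5 that were lower in stimulated than in naive cells (median -0.09), where 19.2% of all genes were higher and 20.2% lower, or 0 and 6 with library totals alone. Xrn1, the 5′ to 3′ exonuclease, averaged 4.32 ± 1.14 CPM in Torin, 2.73 ± 0.821 CPM in stimulated and 9.45 ± 1.102 CPM in naive cells, and was lower in stimulated than in naive cells by -1.79 (adjusted p = 0.000225, edgeR). Ddx6, a helicase of decapping and translational repression, stood at 11.6, 11.9 and 9.44 CPM in Torin, 6.75, 6.84, 7.04 and 7.10 CPM in stimulated, and 20.1, 19.99, 20.5 and 20.1 CPM in naive libraries. Within the stimulated and the naive group its values were nearly level, and Torin lay between them. It was lower by -1.54 (adjusted p = 1.03e-05) in stimulated than in naive cells. Dcp1b, a decapping cofactor, and Skiv2l, a helicase that works with the exosome, were lower by -0.89 and -0.88. Skiv2l overlapped between the groups and passed in 9 of the 11 fits that left out 1 library. Cnot6 also fell and Cnot7 rose, both deadenylase subunits. With Torin against stimulated cells Ddx6 was the 1 of 11 genes that passed in edgeR (0.67, SE 0.13, adjusted p = 0.0215), where 4.62% of all genes passed. The list median was 0.19, and 2 genes passed with the replicate block. The call on Ddx6 was lost without Torin 1, Torin 3, stimulated 2 or stimulated 4, without the libraries of number 2 or 4, and with both groups fitted alone (0.69, adjusted p = 0.0528).

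**Figure D3:**
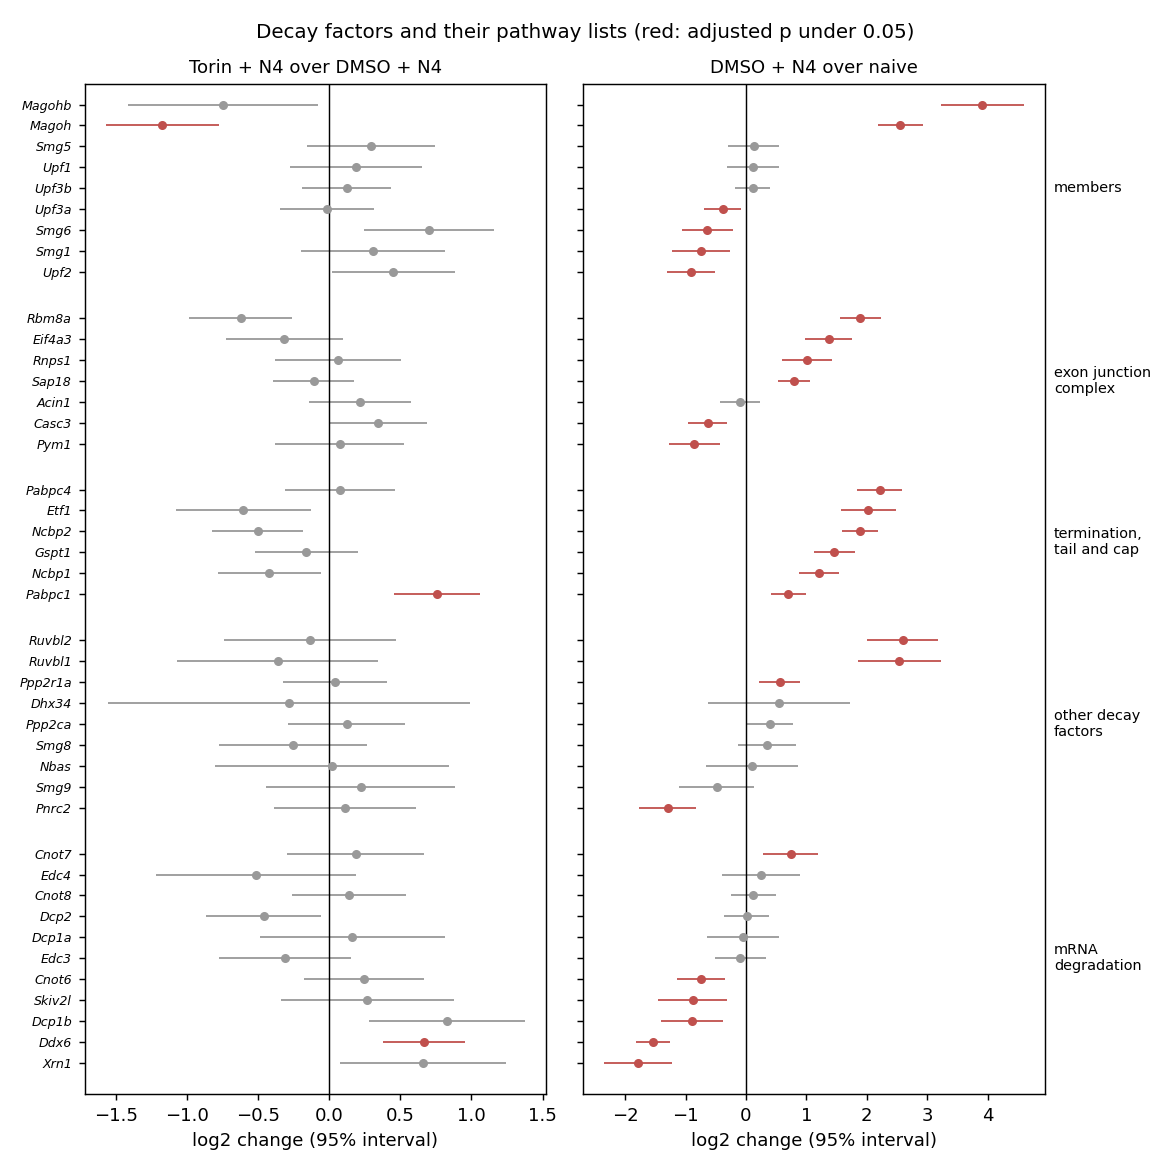
Log2 change with its unadjusted 95% interval for the 9 factors and genes of 4 pathway lists, for Torin over stimulated cells (left) and stimulated over naive cells (right), red where the adjusted p was under 0.05; Gspt2, near 0 in every library, and 1 gene of the other decay factors are not drawn. On the left Magoh, Pabpc1 and Ddx6 are red, and on the right the 6 drawn termination, tail and cap genes lie above 0, while Gspt2 of the same list fell.

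Known substrates of the pathway formed a list of 10 genes, with 1 further symbol left out because 2 identifiers share it. Between stimulated and naive cells 6 were higher and 2 lower (median 1.04), where 19.2% of all genes were higher and 20.2% lower, or 4 and 3 with library totals alone. Atf3, a stress-responsive transcription factor gene, was higher by 3.55, Cdkn1a, the p21 cell cycle inhibitor, by 2.35, and Snhg1, a snoRNA host gene, by 1.81 (adjusted p = 0.00120, 0.00319 and 0.000169, edgeR). Gadd45a, a DNA damage response gene, was lower by -1.70 (adjusted p = 0.0113), with overlap between the groups and values of 0.694 to 7.27 CPM over all libraries. Atf4, Gadd45b and the snoRNA host gene Snhg12 also rose, and Ern1, which encodes a sensor of unfolded protein in the endoplasmic reticulum, fell with overlap between the groups. Ern1 passed in 2 of the 11 fits that left out 1 library. Many of these genes are also known to respond to T cell activation or stress.

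With Torin against stimulated cells 2 known substrates rose and 2 fell (median 0.17), where 2.32% of all genes were higher and 2.3% lower, or 2 and 0 with library totals alone. Gas5, a host gene of snoRNAs whose spliced RNA is a classical substrate, had 1900.5, 1657 and 1423 CPM in Torin, 753, 826, 1234 and 629 CPM in stimulated, and 577, 813, 882 and 881 CPM in naive libraries. All Torin libraries were above all others, and the log2 change was 0.95 (SE 0.23, adjusted p = 0.0453, edgeR). Zfas1, another snoRNA host gene, stood at 451, 426 and 309 CPM in Torin, 176, 158, 268 and 134 CPM in stimulated, and 159.6, 202, 232 and 231 CPM in naive libraries (log2 change 1.104, adjusted p = 0.0303). Again the Torin libraries were the highest. Atf4, the transcription factor gene of the integrated stress response, was lower with Torin by -0.88 (adjusted p = 0.0433) and Cdkn1a by -2.28 (adjusted p = 0.0441). These calls were close to the threshold: with the replicate block 1 gene rose and 0 fell, and without stimulated 1, stimulated 2, Torin 1 or Torin 3, or without the libraries of number 2 or 4, 0 of 10 passed in edgeR. Of the 11 fits that left out 1 library, Gas5 passed in 2, Zfas1 in 6, Atf4 in 2 and Cdkn1a in 3.

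Transcripts of the 9 factors were tested for their share of the gene. Of 13887 transcripts tested with limma, 12 belonged to the factors. For stimulated against naive cells 6 of the 12 passed, in Upf3a and Magohb, against 17.4% of all transcripts. These 6 are not independent: the Upf3a transcripts mirror each other (0.84 for Upf3a-201 and -0.84 for Upf3a-202), and the Magohb transcripts divide the counts of 1 gene. With Torin against stimulated cells 0 of 12 passed in limma, where 0 had an unadjusted p under 0.05, and 0 in edgeR's diffSpliceDGE, against 0.202% of all transcripts in limma, and with Torin against naive cells 1 of 12 passed, against 6.63%.

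For Upf3a, the retained-intron transcript Upf3a-202 held 8.82%, 5.94% and 5.24% of the gene's counts in Torin, 4.65%, 6.01%, 7.48% and 4.24% in stimulated, and 10.3%, 15.0%, 9.74% and 15.3% in naive libraries. All naive libraries were above all others. Its log2 ratio to the rest of the gene was lower by -0.84 in stimulated than in naive cells (SE 0.25, adjusted p = 0.0446, limma). With the replicate block it did not pass (-0.84, adjusted p = 0.0972), nor did it with a prior of 2 CPM (-0.36, adjusted p = 0.177) or in 9 of the 11 fits that left out 1 library. With a prior set to 1% of the gene, chosen after seeing the data, it passed (-1.15, adjusted p = 0.0248).

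The Magohb calls of the test rested on its prior of 0.5 CPM. Magohb-201, the coding transcript, held 98.0 ± 0.255% of the gene in Torin, 98.5 ± 0.408% in stimulated and 97.6 ± 1.77% in naive cells. Magohb-202, annotated as a decay substrate, held 0.515 ± 0.144%, 0.555 ± 0.279% and 0.334 ± 0.316% in Torin, stimulated and naive cells, so that its mean share was higher in stimulated cells, while the test gave a lower ratio (-1.51, adjusted p = 0.0124). With the prior of 1% of the gene the sign turned (0.24, adjusted p = 0.441) and none of the 4 Magohb calls passed. Magohb-203, the other decay-annotated transcript that was tested, held 0.411 to 0.895% in Torin, 0.320 to 0.441% in stimulated and 0.162 to 4.56% in naive libraries.

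The remaining factors were read mostly as 1 coding transcript. Upf2-201 held a mean of at least 99.4% of its gene in each group, Smg6-201 at least 99.2%, Magoh-201 at least 99.1% and Upf3b-201 at least 95.3%. Smg1-201 held 86.7 ± 3.68% in Torin, 82.5 ± 5.70% in stimulated and 90.1 ± 1.82% in naive cells, with retained-intron transcripts among the rest. Smg5-203, a retained-intron transcript, held 19.8%, 12.2% and 17.3% of Smg5 in Torin, 22.3%, 16.6%, 5.79% and 10.1% in stimulated, and 26.1%, 42.5%, 14.5% and 13.2% in naive libraries. The groups overlapped and it did not pass.

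**Figure D4:**
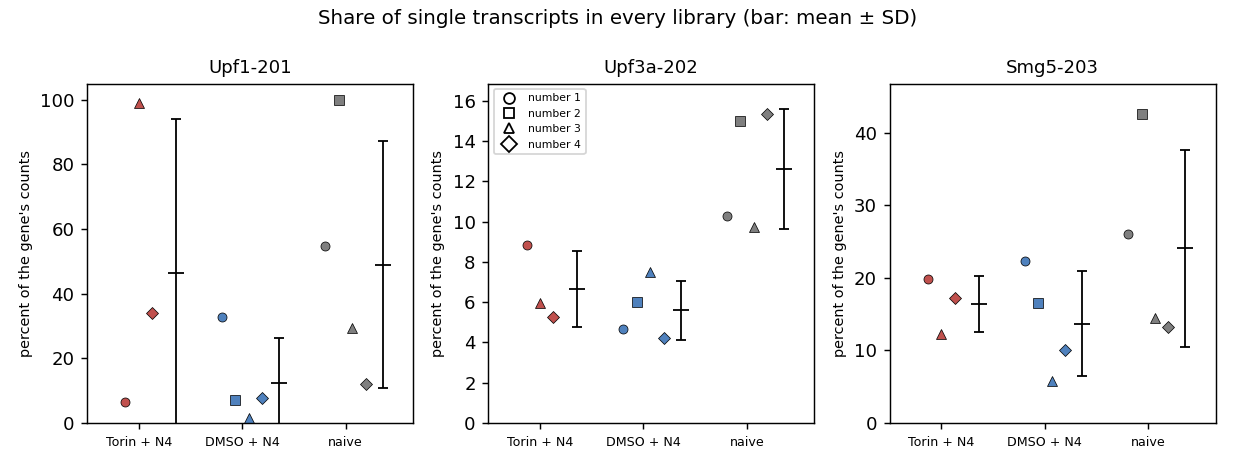
Share of the gene's counts (percent, linear axes from 0) in Upf1-201, Upf3a-202 and Smg5-203 in every library, by group and replicate number, with the mean and SD beside the points. Upf3a-202 is higher in all naive libraries than in the others, while Upf1-201 runs from under 2% to 100%.

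As a readout of the pathway, the share of counts in transcripts annotated as decay substrates was summed over 4567 genes that have such a transcript. Smg1, Smg5, Smg6 and Magohb were among these genes. It was 6.99%, 6.63% and 6.84% in Torin 1, 3 and 4, 6.31%, 5.59%, 6.20% and 5.72% in stimulated 1 to 4, and 8.22%, 7.57%, 8.93% and 8.10% in naive 1 to 4. The groups did not overlap, with stimulated lowest, Torin next and naive highest. Stimulated cells were lower than naive cells by -2.25 percentage points (5.96 ± 0.353% against 8.20 ± 0.559%, two-sided exact permutation p = 0.0286, the smallest that 4 against 4 libraries can give). With numbers paired the smallest p possible was 0.125, which was reached. Torin exceeded stimulated cells by 0.863 percentage points and differed from naive cells by -1.38, each with an exact permutation p of 0.0571, the smallest that 3 against 4 can give.

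A few genes held much of this share. The 10 genes with most decay-annotated counts held 37.4% of them, led by Rps19, which encodes a ribosomal protein, and Ftl1, which encodes a ferritin chain. Without them, a choice made after seeing the data, the share was 4.80 ± 0.101% in Torin, 4.39 ± 0.316% in stimulated and 5.91 ± 0.580% in naive cells. Torin and stimulated libraries then overlapped (difference 0.406 percentage points, exact permutation p = 0.171), and stimulated and naive libraries did not (-1.52, p = 0.0286 by the same exact test). The median share over genes was 0.550 ± 0.0874%, 0.414 ± 0.127% and 0.711 ± 0.111% in Torin, stimulated and naive cells. The split of counts among transcripts rests on the deposited estimates, and such a share depends on transcription and splicing as well as on decay.

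**Figure D5:**
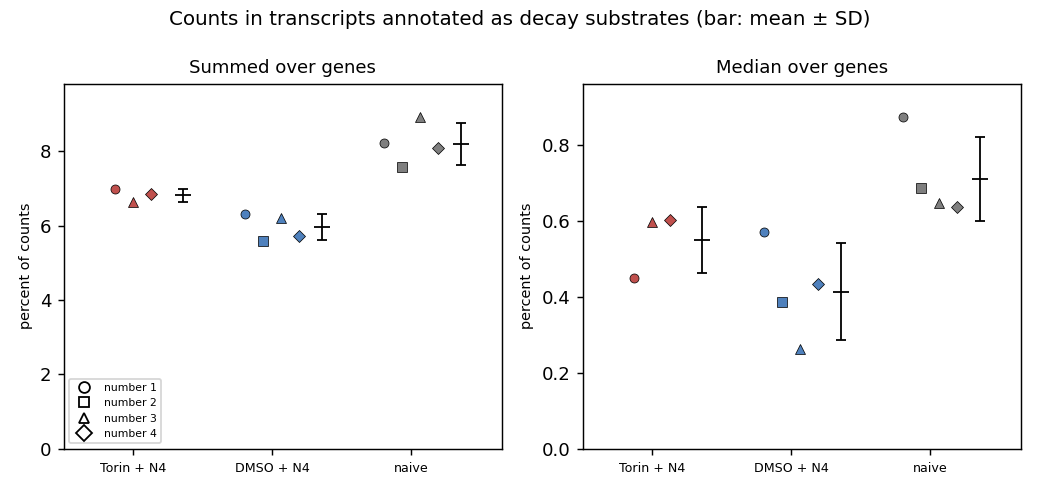
Percent of counts in transcripts annotated as decay substrates, summed over genes (left) and as the median over genes (right), in every library, with the mean and SD beside the points. The summed share separates the 3 groups, with stimulated libraries lowest at 5.59 to 6.31%; the median share overlaps between Torin and stimulated libraries.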

How the data were processed

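Poly(A) RNA of 11 libraries was sequenced, with an ultra-low input SMARTer kit per the labels. The authors deposited estimated counts per gene and transcript, in whole numbers, and 0 columns of either table were unused. The submitters' processing notes name, with no roles, StringTie 2.1.0, STAR 2.7.1a, DESeq2 1.30.1, SAMtools 1.9, R 4.0.5 and the mouse build mm39. Coverage-based estimates can be larger than read numbers, and how transcripts of 1 gene share them cannot be checked here.

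Names and transcript types came from GENCODE M21 (GRCm38), matched by identifier without version to 94.0% of genes and 97.1% of transcripts. Promoter windows came from RefSeq on GRCm38.p6. No protein sequences were used. For all 9 factors the gene count equalled the sum of their transcripts. CPM used TMM-scaled library totals, and TPM used transcript lengths.

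Genes were tested in edgeR 4.0.16 (R 4.3.3) by quasi-likelihood F tests in 1 model of 3 group means, after filterByExpr at a minimum count of 10, which kept 22238 genes, and transcript usage in limma 3.58.1 on log2 ratios of transcript to the rest of its gene with a prior of 0.5 CPM and a mean of at least 1 CPM. Benjamini-Hochberg adjustment ran over everything tested, with a threshold of 0.05. The decay-annotated share was compared by two-sided exact permutation of libraries. The gene and usage tests were also run on simulated data, whose outcome is not given here. The usage simulation held gene levels constant, so it could not show the effect of the prior described for Magohb.

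The 9 factors, the lists and the tests were chosen with earlier results of these data known. Named were all 9 factors, list genes past the threshold, with log2 changes for at most the 4 largest per list and comparison, factor transcripts of at least 1 CPM, and the 3 genes most like 2 of the factors. 1 gene of the other decay factors is counted with its list and not reported here by itself. Rbm8a, Gspt2 and members below the threshold were named beyond that rule after their values were seen, as were GACGTCA and the ratio of Magohb to Magoh.

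Replicate numbers are in the labels, without their meaning. Deviations from group means of same-numbered libraries correlated at 0.44, 0.46, 0.32 and 0.47 for stimulated and naive numbers 1 to 4. They correlated at 0.23, 0.41 and 0.59 for Torin and stimulated and at 0.17, 0.33 and 0.42 for Torin and naive numbers 1, 3 and 4. All were above correlations between other numbers, but for Torin and naive number 1 barely so (0.169 against at most 0.167). The numbers may therefore pair libraries. The main fits and the main exact test did not use this pairing, and the paired fit was an alternative. No 2 libraries were duplicates.

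Alternatives were DESeq2 1.42.0 or only its size factors, scaling by totals, dropping the filter, a mean of at least 5 CPM, the replicate block, both groups alone, each library left out, the libraries of number 2 or 4 left out, other priors and filters for usage, edgeR's diffSpliceDGE, and other weights for the share.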

Additional observations from a re-analysis of the deposited data

Results flagged for a closer look

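In 51 groups of 4 libraries, 6 had a library set apart from the other 3 by more than Dixon's 95% critical gap, and chance flags about 1 in 20 such groups. Upf3a stood at 11.5 CPM in stimulated 2, below the other stimulated libraries. Smg6 stood at 8.36 CPM in naive 1, below the other naive libraries, and Magoh at 206 CPM in naive 2, above the others. The Smg6-201 share was 98.1% of its gene in stimulated 3, the lowest of its group. Magohb-203 held 4.56% of Magohb in naive 4 and Magohb-207, a retained-intron transcript, held 0.486% in naive 1, each the highest of its group. Naive 2 and stimulated 2 are the libraries with the high granulocyte markers, and naive 4 has the high B cell markers; their part in these values was not tested.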

How the results depend on the processing

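Magoh and Magohb kept their direction in all comparisons and alternatives, and Upf2 its call for stimulated against naive cells. For that comparison the factors called numbered 6, with 4 to 6 when 1 library was left out and 3 without the libraries of number 4. All genes called for Torin against stimulated cells were 1027, against 656 without the filter, 55 without number 4, 338 without number 2, 2740 in DESeq2 and 144 to 1058 with 1 library left out. Factors called there were 1, against 0 without number 4, 2 in DESeq2 and 0 to 1 with 1 library left out. For Torin against naive cells 2 became 5 with library totals alone and with a mean of at least 5 CPM. Factors with changed transcript usage numbered 2 for stimulated against naive cells. They were 1 with a prior of 2 CPM, 0 at a mean of at least 3 CPM, 0 in diffSpliceDGE, 1 with the replicate block, 1 with the prior of 1% of the gene and 1 to 2 with a library left out. For Torin against naive cells 1 became 0 at a mean of at least 3 CPM, in diffSpliceDGE, with the replicate block and with the prior of 1%, and was 0 to 1 with a library left out. The decay-annotated share in stimulated against naive cells was -2.25 points with the replicate block (exact p = 0.125) and -2.46 to -2.01 with a library left out (exact p = 0.0571), each the smallest p possible. Factors that did not pass turned sign as follows. For stimulated against naive cells Upf1, Upf3b and Smg5 were -0.39, -0.38 and -0.36 with library totals alone and -0.0097, -0.020 and -0.0029 at a mean of at least 5 CPM. Upf3a in Torin against stimulated cells was 0.13 with library totals alone, 0.011 with both groups alone, 0.063 without number 4, and -0.086 to 0.044 with a library left out. For Torin against naive cells library totals alone gave -0.033 for Upf1, -0.11 for Upf3b and -0.27 for Smg6. Smg6 there was -0.093 at a mean of at least 5 CPM, -0.0084 with the replicate block and -0.071 to 0.31 with a library left out. Magohb-202 and Magohb-207 usage for stimulated against naive cells was 0.39 and 0.36 in diffSpliceDGE and 0.24 and 0.14 with the prior of 1%, and Magohb-202 for Torin against naive cells was 0.22 and 0.21. The causes were not tested, except that a fixed prior weighs more in a gene with low counts. Among values of single factors, 489 kept side and direction, 23 lost the call, 10 gained it and 18 turned. The replicate block changed the calls named beside their results (Upf3a, Upf2, transcript usage) and no other call of a factor. Precision rests on 3 or 4 libraries a group; 3 against 4 cannot give an exact p under 0.0571.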
